A study of Homo sapiens with 6 samples.

Results

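Aminoacyl-tRNA synthetases are the enzymes that join each amino acid to its tRNA, the step that supplies charged tRNA to the ribosome. The genes were taken by symbol from the deposited count table: a single amino acid letter followed by ARS and optionally 1 or 2, together with EPRS1, FARSA and FARSB, and only where the gene is protein coding. This gave 37 genes among 60564 rows with an Ensembl identifier. Of these, 18 encode enzymes of the cytosol, 17 encode enzymes of mitochondria (all symbols that end in 2), and GARS1 and KARS1 each encode an enzyme that serves both compartments. All 37 had enough counts to be tested.

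Human cells keep separate sets of synthetases for the cytosolic and the mitochondrial ribosome, although all of the genes lie in the nucleus and the mitochondrial enzymes are imported. Several cytosolic enzymes sit in a multi-synthetase complex held together by scaffold proteins. Many cytosolic synthetase genes are known targets of ATF4, the transcription factor of the amino acid and endoplasmic reticulum stress response. In mitochondria, EARS2 charges the tRNA for glutamine with glutamate, and an amidotransferase then converts it.

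The libraries came from HepG2, an established human liver tumour line that keeps many hepatocyte functions and is labelled as wild type, grown in DMEM with serum and antibiotics. The 3 control libraries are labelled with DMEM as their treatment, although the protocol text with the compound is repeated for them, and no solvent control or control time is named. The 3 formononetin libraries came from cells given formononetin, a methoxylated isoflavone of legumes, at 625 μm, the unit being as spelled in the labels, over 72 h. The comparison asks how transcript levels differ with and without the compound.

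Totals on named genes were 30848848 to 36243606 counts in control and 37465148 to 45682722 in formononetin libraries, and synthetase genes took 0.351 to 0.410% of them. A synthetase gene had between 143 and 17928 counts in a library. All 8 hepatocyte markers were present, at control means of 113 to 25683 CPM (counts scaled to library size with TMM), of which 6 were lowered and 1 raised. Among 8 markers of leukocytes, fibroblasts and endothelium, PTPRC and COL3A1 were at 0 in every library, CD68 was raised and PDGFRB lowered, and their summed level was 37.4 to 43.1 CPM in the controls and 36.3 to 38.6 CPM with formononetin. The part of these marker changes in the synthetase results was not tested. In bulk RNA, fewer cells of a type and less RNA per cell cannot be told apart.

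With formononetin, synthetase genes changed by small amounts in both directions. In the fit across all 22230 tested genes (quasi-likelihood test of edgeR, threshold 0.05 on the p adjusted after Benjamini and Hochberg), 10 synthetase genes were raised and 6 were lowered, against 7 and 7 under upper quartile scaling. That is 43.2% of the 37, where 20.7% of all tested genes were called, 12% raised and 8.71% lowered (2659 and 1937 genes, and 1813 and 2737 under upper quartile scaling). Among the 11146 genes at or above the level of the lowest synthetase, 33.4% were called, 20.8% raised and 12.6% lowered. The groups did not overlap for 23 of the 37 genes (62.2%), against 39.4% of all tested genes and 53.5% of those at or above the lowest synthetase level. The changes were modest: log2 fold changes included -0.48 ± 0.08 (SE) for SARS2 and 0.45 ± 0.11 for LARS2, and no member reached 1.5-fold. Raised synthetases numbered 6 without formononetin replicate 2 and 5 without formononetin replicate 3, and lowered ones numbered 3 when control replicate 2, formononetin replicate 1 or formononetin replicate 2 was left out. The median absolute log2 fold change was 0.33 among the called synthetases and 0.46 among all called genes. The latter include genes below the level of the lowest synthetase, and sizes were not compared at like level.

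In each of the cytosolic and mitochondrial groups 8 genes were called, in both directions. Of the 18 cytosolic enzymes 6 were raised and 2 lowered, with a median log2 fold change of 0.063 that turned to -0.016 under upper quartile scaling. Of the 17 mitochondrial enzymes 4 were raised and 4 lowered, with a median of 0.15, which was 0.068 under upper quartile scaling. The median over all tested genes was -0.011, and it was -0.090 under upper quartile scaling. Over the 11146 genes at or above the lowest synthetase level it was 0.050, close to the cytosolic median. The summed level of the cytosolic enzymes was 2582, 2883 and 2779 CPM in control replicates 1 to 3 and 2892, 2875 and 2846 CPM in formononetin replicates 1 to 3, so the groups overlapped. The summed level of the mitochondrial enzymes was 679, 685 and 664 CPM in the controls and 721, 741 and 737 CPM with formononetin, without overlap. Both sums were taken with TMM scaling alone, and whether the groups stay apart under upper quartile scaling was not tested. In the cytosolic group, control replicate 1 was the lowest control library for 13 of 18 genes, and the median log2 fold change was 0.018 without it. Without formononetin replicate 3 the cytosolic median was 0.032 and 3 cytosolic genes were raised. Raised mitochondrial genes numbered 1 without formononetin replicate 1 and 2 when control replicate 2, formononetin replicate 2 or formononetin replicate 3 was left out.

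**Figure D1:**
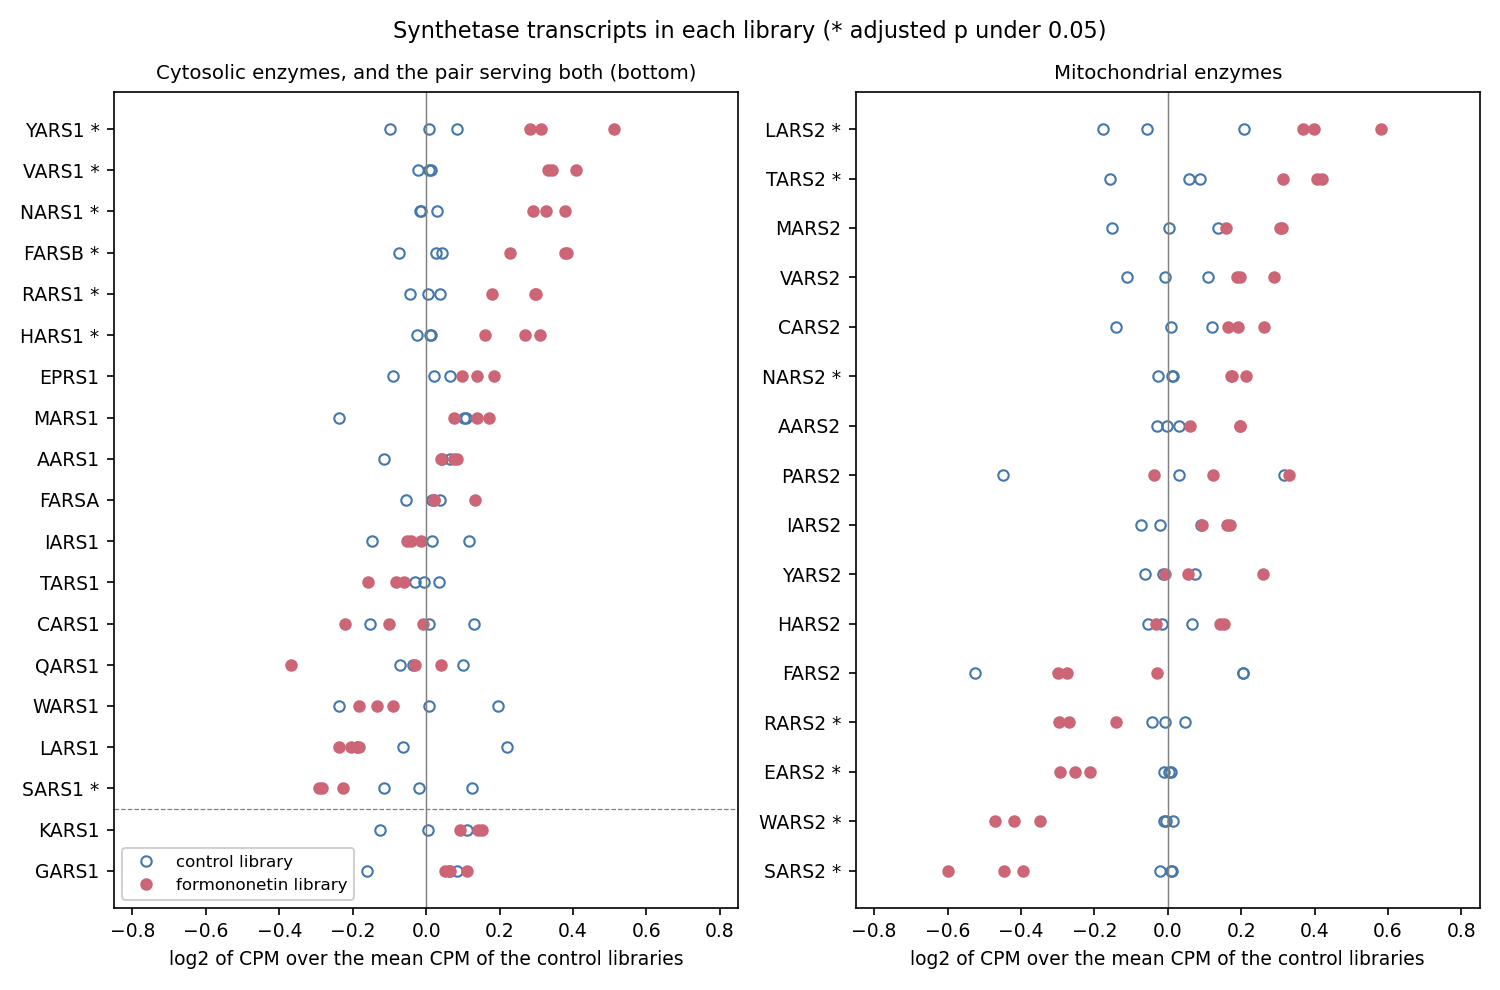
Each row is a gene that is reported and each point a library, placed by log2 of its CPM over the mean CPM of the 3 control libraries (open points control, filled points formononetin). Starred genes passed the test. YARS1 and LARS2 head the panels upwards, SARS1 and SARS2 downwards, and the points of GARS1 and KARS1 overlap between groups.

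Levels between genes were compared per length, as CPM per kb of exon (the union of all annotated exons in GENCODE 29, which overstates the transcript of genes with many alternative exons). In control libraries AARS1 was highest at 71.2 ± 4.71 (SD, n = 3), followed by GARS1 at 57.6 ± 5.25 and IARS1 at 55.0 ± 5.01. The control libraries of AARS1 lay above those of GARS1, while those of GARS1 and IARS1 overlapped. PARS2, the mitochondrial prolyl enzyme, was lowest at 2.46 ± 0.633. Over the whole order, 12 of 36 steps between neighbours were clear of overlap between their control libraries. The median was 28.1 CPM per kb for cytosolic and 7.55 for mitochondrial enzymes. Cytosolic and mitochondrial genes whose symbols open with the same amino acid letter were paired, which leaves out EPRS1 with PARS2. The cytosolic gene was the higher in 16 of these 17 pairs. The exception was arginine, with RARS1 at 17.6 ± 0.491 and RARS2 at 26.9 ± 0.830 CPM per kb.

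**Figure D2:**
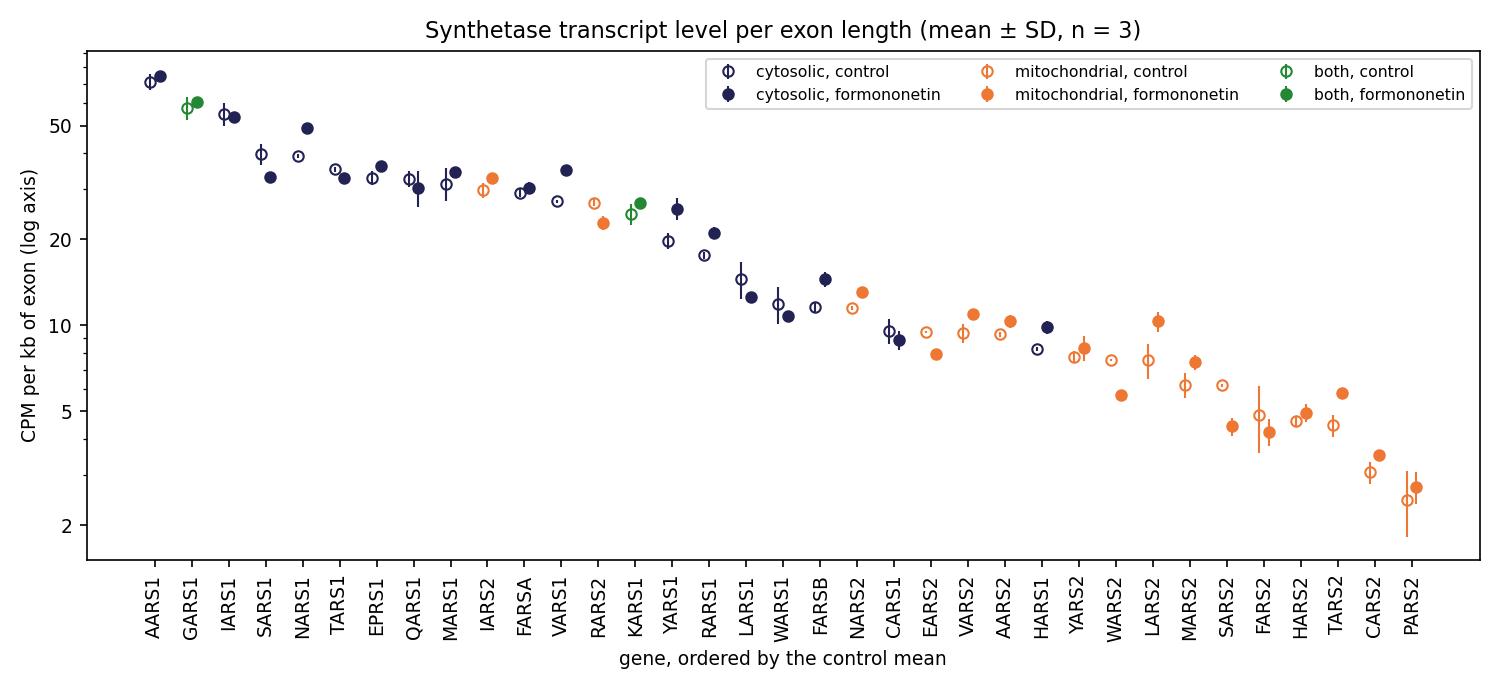
Mean level of each gene reported in CPM per kb of exon on a log axis (bars are SD, n = 3), ordered by the control mean, with control open and formononetin filled. AARS1 at 71.2 and PARS2 at 2.46 CPM per kb end the order in control libraries, and most mitochondrial genes fill its lower part.

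Among the raised cytosolic enzymes YARS1, VARS1, NARS1 and FARSB had the largest fold changes. YARS1, the tyrosyl enzyme (ENSG00000134684, chromosome 1, 32775237 to 32818153, GRCh38), stood at 152, 172 and 163 CPM in the controls and at 232, 197 and 202 CPM with formononetin. This is a log2 fold change of 0.37 ± 0.08 (edgeR adjusted p = 0.0133). VARS1, the valyl enzyme that binds elongation factor complexes (ENSG00000204394, chromosome 6, 31777518 to 31795953), stood at 166, 163 and 167 CPM in the controls and at 208, 209.6 and 219 CPM with formononetin (0.36 ± 0.04, edgeR adjusted p = 0.00118). In both genes every formononetin library lay above every control library, and the control libraries of VARS1 were within a narrow band. NARS1, the asparaginyl enzyme (ENSG00000134440, chromosome 18, 57600656 to 57622213), stood at 158, 163 and 158 CPM in the controls and at 208, 200.2 and 196 CPM with formononetin (0.33 ± 0.04, edgeR adjusted p = 0.00183). These 3 calls held in all 17 alternative settings.

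FARSB, which encodes the beta subunit of the phenylalanyl enzyme (ENSG00000116120, chromosome 2, 222570536 to 222656337), stood at 37.0, 40.1 and 39.7 CPM in the controls and at 45.6, 50.6 and 50.8 CPM with formononetin (0.33 ± 0.07, edgeR adjusted p = 0.0130). The alpha subunit gene FARSA was at 70.8 ± 2.30 CPM in the controls and 73.8 ± 3.39 CPM with formononetin and did not pass (0.06 ± 0.05, edgeR adjusted p = 0.495, n = 3). The enzyme needs both subunits, and the difference between their changes was not tested. RARS1, the arginyl enzyme of the complex (ENSG00000113643, chromosome 5, 168486445 to 168519299), stood at 60.3, 61.7 and 58.3 CPM in the controls and at 68.1, 73.8 and 74.0 CPM with formononetin (0.26 ± 0.05, edgeR adjusted p = 0.0155). HARS1, the histidyl enzyme (ENSG00000170445, chromosome 5, 140673904 to 140691862), stood at 65.5, 65.6 and 63.9 CPM in the controls and at 72.7, 78.3 and 80.6 CPM with formononetin (0.25 ± 0.05, edgeR adjusted p = 0.0179). Groups did not overlap in any of these 3 raised genes. The call of FARSB was lost without formononetin replicate 3 (largest adjusted p 0.0540). Those of RARS1 and HARS1 did not survive upper quartile scaling or the loss of control replicate 3, formononetin replicate 2 or formononetin replicate 3 (largest adjusted p 0.0616 and 0.0688). The call of HARS1 also ended with replicate number as a block (edgeR adjusted p = 0.0527).

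Of the cytosolic enzymes SARS1 was lowered. SARS1, the seryl enzyme (ENSG00000031698, chromosome 1, 109213918 to 109238169), stood at 141, 166 and 151 CPM in the controls and at 125, 125 and 130.5 CPM with formononetin (-0.27 ± 0.07, edgeR adjusted p = 0.0269). All formononetin libraries were below all controls. The call ended when any 1 formononetin library, control replicate 2 or control replicate 3 was dropped, and with no low-count filter (largest adjusted p 0.0861). It ended too with replicate number as a block (edgeR adjusted p = 0.0537).

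The other 10 cytosolic enzymes were not called, with log2 fold changes from -0.21 for LARS1 to 0.14 for EPRS1 (edgeR adjusted p from 0.104 to 0.758). They include most of the abundant ones. AARS1, the alanyl enzyme, stood at 296, 335 and 329.9 CPM in the controls and at 329, 338 and 339 CPM with formononetin (0.07 ± 0.05). IARS1, the isoleucyl enzyme, stood at 368, 442 and 412 CPM in the controls and at 403, 392 and 396 CPM with formononetin (-0.04 ± 0.07). The groups overlapped in both, and control replicate 1 was the lowest library. GARS1 and KARS1, which serve both compartments, were at 239 ± 21.8 against 252 ± 5.41 CPM and at 99.5 ± 8.19 against 109 ± 2.38 CPM, with changes of 0.08 ± 0.07 and 0.13 ± 0.07 (n = 3, edgeR adjusted p = 0.487 and 0.220).

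The promoters of the family were read for the letters of a stress response site. ATF4 with a C/EBP partner binds a composite site whose core is TGATGNAA. The core was searched on both strands in RefSeq promoters (GRCh38.p14, 250 bases before to 50 after the start). The table held promoters of 30 of the 37 genes. Those of AARS2, LARS1, VARS1, VARS2 and YARS1 are not among them. A match stood in 8 of the 30 genes, or in 8 of 39 promoters (20.5%) since 9 genes have a second start, while 1270 of 35116 promoters of that length held it (3.62%). By compartment, 6 of 14 cytosolic genes, GARS1, and 1 of 14 mitochondrial genes had a match. The 30 bases around each match follow, read along the gene, with the matched core in capitals (TTNCATCA is the same core on the other strand).
AARS1: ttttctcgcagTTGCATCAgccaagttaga
CARS1: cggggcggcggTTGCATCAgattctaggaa
GARS1: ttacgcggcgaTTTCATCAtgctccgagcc
IARS1: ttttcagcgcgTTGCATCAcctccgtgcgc
MARS1: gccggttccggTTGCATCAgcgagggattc
NARS1: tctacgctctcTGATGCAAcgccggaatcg
TARS1: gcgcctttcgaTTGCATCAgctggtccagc
YARS2: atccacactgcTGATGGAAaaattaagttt

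The windows lie at chr16:70289675-70289704 for AARS1, chr11:3057407-3057436 for CARS1, chr7:30594834-30594863 for GARS1 and chr9:92293692-92293721 for IARS1. Those of MARS1, NARS1, TARS1 and YARS2 lie at chr12:57488053-57488082, chr18:57621804-57621833, chr5:33440956-33440985 and chr12:32756076-32756105. The strand is + for GARS1, MARS1 and TARS1 and - for the others. In CARS1, IARS1, MARS1 and TARS1 the core begins within 13 bases of the transcription start. Of the 8 genes with a match NARS1 was raised and the other 7 were not called, with log2 fold changes from -0.11 for CARS1 to 0.33 for NARS1. TARS1 was called as lowered under upper quartile scaling (-0.18, adjusted p = 0.0254, with 0.0254 to 0.431 over its alternatives). Among the 22 genes with a promoter and no match, 6 were raised and 5 lowered, from -0.48 to 0.45. These sets differ in compartment and in level, with a median control level of 211 CPM with a match and 53.0 CPM without. Among genes of the cytosol or of both compartments, 1 of 7 with a match was raised and 0 lowered. Of the 9 such genes without a match, 3 were raised and 1 lowered. Over all tested genes the shares were 12% raised and 8.71% lowered, and 20.8% and 12.6% at or above the lowest synthetase level. A difference by match was not tested. A match is a description of letters and not evidence of binding in these cells.

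Among the mitochondrial enzymes LARS2, TARS2 and NARS2 were raised. LARS2, the leucyl enzyme (ENSG00000011376, chromosome 3, 45388506 to 45549421), stood at 59.5, 49.6 and 45.6 CPM in the controls and at 67.9, 66.5 and 77.0 CPM with formononetin (0.45 ± 0.11, edgeR adjusted p = 0.0242). TARS2, the threonyl enzyme (ENSG00000143374, chromosome 1, 150487364 to 150507609), stood at 16.4, 19.0 and 19.4 CPM in the controls and at 24.4, 24.1 and 22.7 CPM with formononetin (0.38 ± 0.09, edgeR adjusted p = 0.0206). NARS2, the asparaginyl enzyme (ENSG00000137513, chromosome 11, 78435961 to 78574874), stood at 35.7, 36.7 and 36.7 CPM in the controls and at 41.0, 42.2 and 41.1 CPM with formononetin (0.19 ± 0.05, edgeR adjusted p = 0.0413). The groups stood apart in all 3 genes, narrowly in LARS2, where control replicate 1 came closest to the formononetin libraries. The call of LARS2 depended on control replicates 2 and 3 and on formononetin replicates 1 and 3, and ended when any of them was left out (largest adjusted p 0.0820). That of TARS2 ended without formononetin replicate 1 or 2 (largest adjusted p 0.0711). That of NARS2 was lost without any 1 of the 6 libraries, with DESeq2, under upper quartile scaling and without the low-count filter (largest adjusted p 0.187). All 3 calls also ended with replicate number as a block (edgeR adjusted p = 0.0573, 0.0582 and 0.0977 for LARS2, TARS2 and NARS2).

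SARS2 and WARS2 fell most. SARS2, the seryl enzyme (ENSG00000104835, chromosome 19, 38915266 to 38930896), stood at 19.7, 20.1 and 20.1 CPM in the controls and at 13.2, 14.7 and 15.2 CPM with formononetin (-0.48 ± 0.08, edgeR adjusted p = 0.00630). WARS2, the tryptophanyl enzyme (ENSG00000116874, chromosome 1, 119031216 to 119140671), stood at 29, 29.1 and 29.4 CPM in the controls and at 22.9, 21.8 and 21.0 CPM with formononetin (-0.41 ± 0.06, edgeR adjusted p = 0.00432). The control libraries of each were almost level and every formononetin library was lower, and both calls held in all 17 alternatives. SARS2 shares 349 exonic bases with MRPS12, a mitochondrial ribosomal protein gene on the opposite strand, which was not called (0.07 ± 0.08, edgeR adjusted p = 0.624). SARS2 also shares 1492 exonic bases with AC011455.2 on the same strand, which held 15 counts over all libraries against 3777 for SARS2. WARS2 shares 180 exonic bases with AL359915.2 on the opposite strand, which was not called (-0.05 ± 0.12, edgeR adjusted p = 0.815). AL359915.2 held 6124 counts over all libraries against 5623 for WARS2. The strand setting of the counting is not given in the sources used here.

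EARS2, which charges mitochondrial tRNA for glutamate and glutamine (ENSG00000103356, chromosome 16, 23522014 to 23557731), stood at 54.0, 54.7 and 54.5 CPM in the controls and at 47.0, 44.3 and 45.6 CPM with formononetin (-0.25 ± 0.05, edgeR adjusted p = 0.0120). RARS2, the arginyl enzyme (ENSG00000146282, chromosome 6, 87514378 to 87590003), stood at 68.2, 70.7 and 66.5 CPM in the controls and at 55.8, 62.2 and 56.8 CPM with formononetin (-0.23 ± 0.06, edgeR adjusted p = 0.0311). In both, all formononetin libraries lay below all controls. The call of EARS2 was lost without formononetin replicate 2 (largest adjusted p 0.0504). That of RARS2 ended without any 1 control library, without formononetin replicate 1 or 3, when libraries were scaled by their totals and without the low-count filter (largest adjusted p 0.0914). EARS2 shares 370 exonic bases with UBFD1 on the opposite strand, whose level varied from library to library (81.2 ± 20.1 CPM in control, 145 ± 74.1 CPM in formononetin libraries, n = 3).

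The 9 remaining mitochondrial enzymes were not called, with log2 fold changes from -0.20 for FARS2 to 0.26 for MARS2 (edgeR adjusted p from 0.0508 to 0.672). VARS2, the valyl enzyme, missed the threshold most narrowly, at 79.0, 73.6 and 85.6 CPM in the controls and 90.9, 96.9 and 90.4 CPM with formononetin (0.22 ± 0.07, edgeR adjusted p = 0.0508). It shares 1858 exonic bases with GTF2H4 on the same strand, and the sum of both genes was not called (0.17, adjusted p = 0.102). Over all alternatives the adjusted p of VARS2 ran from 0.0288 to 0.173, and it was called in 6 of them. FARS2, the phenylalanyl enzyme, stood at 27.1, 27.0 and 16.3 CPM in the controls and at 19.1, 23.0 and 19.4 CPM with formononetin, so that control replicate 3 was the lowest of all. HARS2, the histidyl enzyme, lies head to head with HARS1 and shares 437 exonic bases with it. It stood at 17.1, 16.7 and 18.1 CPM in the controls and at 19.1, 16.9 and 19.3 CPM with formononetin (0.09 ± 0.08, edgeR adjusted p = 0.5). Its sum with ZMAT2, which it overlaps on the same strand, was called (0.21, adjusted p = 0.0342, with 0.0342 to 0.941 over all alternatives). ZMAT2 held 10502 counts over all libraries against 4024 for HARS2, and was raised by itself (0.25 ± 0.06, edgeR adjusted p = 0.0247). YARS2, the tyrosyl enzyme, stood at 16.5, 17.6 and 16.0 CPM in the controls and at 20, 17.4 and 16.6 CPM with formononetin (0.11 ± 0.09). The groups overlapped in FARS2, HARS2 and YARS2 but not in VARS2.

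For 16 amino acids a cytosolic and a mitochondrial enzyme were paired by the amino acid letter that opens the symbol. This gives 17 pairs since the cytosolic phenylalanyl enzyme has FARSA and FARSB. EPRS1 also charges proline, but it was paired with EARS2 alone, and its ratio with PARS2 was not taken. Both members were called in the pairs for asparagine, arginine and serine. They moved in opposite directions for arginine, both rose for asparagine, and both fell for serine. The log2 ratio of the mitochondrial to the cytosolic gene within a library does not depend on how libraries are scaled. For RARS2 over RARS1 it was 0.18, 0.20 and 0.19 in control and -0.29, -0.25 and -0.38 in formononetin libraries. Per kb of exon RARS2 remained the higher gene with formononetin, at 22.9 ± 1.34 against 21.0 ± 0.980 CPM per kb for RARS1 (SD, n = 3). The ratio, taken on CPM not corrected for length, was lower in every formononetin library than in every control library. It had an exact permutation p = 0.1, two-sided, the smallest that 3 against 3 libraries allow (0.213 adjusted over the 17 pairs), so the design could not take it past 0.05.

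In other pairs the mitochondrial member alone passed the test. LARS1, the leucyl enzyme of the complex, stood at 104, 138 and 113 CPM in the controls and at 100.1, 103 and 104 CPM with formononetin, and did not pass (-0.21 ± 0.10, edgeR adjusted p = 0.189), while LARS2 was raised. TARS1 stood at 197, 206 and 200.2 CPM in the controls and at 189.8, 180.1 and 193 CPM with formononetin, and did not pass (-0.10 ± 0.04, edgeR adjusted p = 0.157), while TARS2 was raised. Control replicate 1 of LARS1 fell within the range of its formononetin libraries, while the groups of TARS1 did not overlap. The log2 ratios of LARS2 over LARS1 and of TARS2 over TARS1 differed between groups by 0.65 and 0.48 (exact permutation p = 0.1 for each, the smallest possible). This p was not particular to these pairs. The ratios for asparagine, serine and tyrosine reached it too, with differences of -0.14, -0.22 and -0.27, though not every pair did. EPRS1, the glutamyl-prolyl enzyme of the complex, stood at 168, 187 and 181 CPM in the controls and at 197, 203 and 191 CPM with formononetin, and did not pass (0.14 ± 0.05, edgeR adjusted p = 0.104), beside the lowered EARS2. Their log2 ratio fell by 0.40 between groups (exact permutation p = 0.1), and the groups did not overlap in EPRS1. WARS1, a tryptophanyl enzyme that interferon also induces, stood at 63.9, 75.7 and 86.3 CPM in the controls and at 66.3, 70.7 and 68.6 CPM with formononetin (-0.14 ± 0.10, edgeR adjusted p = 0.412), and the groups overlapped.

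**Figure D3:**
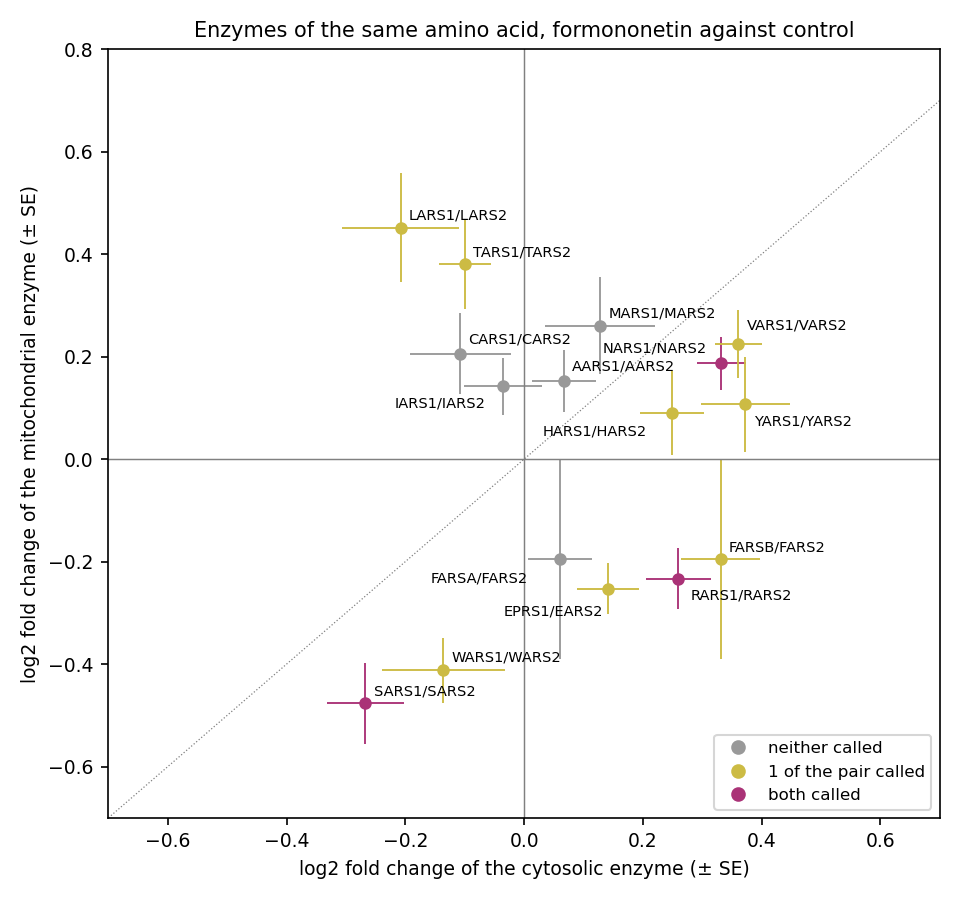
Log2 fold change of the cytosolic enzyme against that of the mitochondrial enzyme of the same amino acid (bars are SE from edgeR, 3 against 3 libraries), for the pairs reported, coloured by how many of the pair passed the test. The dotted line marks equal change. LARS1/LARS2 lies above it and RARS1/RARS2 below it, while SARS1/SARS2 and NARS1/NARS2 have both members on the same side of 0.

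Of 14 genes for complex scaffolds and other steps of tRNA charging, 3 were raised and none lowered, with a median log2 fold change of 0.059. The share raised was 12% over all tested genes and 20.8% among those at or above the lowest synthetase level. The scaffold gene EEF1E1 stood at 27.7, 31.2 and 33.2 CPM in the controls and at 37.7, 36.3 and 39.5 CPM with formononetin (0.30 ± 0.08, edgeR adjusted p = 0.0372). The other scaffold genes AIMP1 and AIMP2 were at 47.5 ± 6.34 against 51.4 ± 2.95 CPM and at 32 ± 2.17 against 28.2 ± 0.703 CPM, and neither was called (0.11 ± 0.10 and -0.18 ± 0.07, edgeR adjusted p = 0.483 and 0.111, n = 3). GATB, a subunit of the amidotransferase that acts after EARS2, changed by 0.22 ± 0.05 (edgeR adjusted p = 0.0266), and DTD1, which removes D-amino acids from tRNA, by 0.27 ± 0.06 (0.0219). All 3 calls ended under upper quartile scaling (adjusted p = 0.0974, 0.108 and 0.0677 for EEF1E1, GATB and DTD1). That of GATB ended without any 1 of the 6 libraries, that of EEF1E1 without any but control replicate 3, and that of DTD1 without any but formononetin replicate 2 (largest adjusted p 0.0916, 0.127 and 0.0778).

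ATF4 itself stood at 459, 525 and 429.7 CPM in the controls and at 501, 479.7 and 476 CPM with formononetin, and did not pass (0.04 ± 0.07, edgeR adjusted p = 0.728). Of 26 genes of the ATF4 amino acid stress response 5 were raised and 3 lowered, with a median log2 fold change of 0.0085. By comparison, 20.7% of all tested genes were called, and 33.4% of those at or above the lowest synthetase level. The serine synthesis genes PSAT1, PSPH and PHGDH were raised (0.43 ± 0.05, 0.39 ± 0.06 and 0.39 ± 0.04). SLC38A2, a neutral amino acid transporter, SESN2 and TRIB3 were lowered (-0.49 ± 0.05, -0.22 ± 0.06 and -0.22 ± 0.05). ASNS, asparagine synthetase, stood at 96.3, 97.2 and 77.5 CPM in the controls and at 118, 116 and 97.9 CPM with formononetin, and did not pass (0.29 ± 0.11, edgeR adjusted p = 0.0991). DDIT3, the stress factor CHOP, was at 15.1 ± 4.39 against 10.9 ± 0.892 CPM (-0.47 ± 0.20, edgeR adjusted p = 0.137, n = 3). It shares 355 exonic bases with MARS1 on the opposite strand, and MARS1, the methionyl enzyme, stood at 187, 238 and 237 CPM in the controls and at 248, 243 and 232 CPM with formononetin (0.13 ± 0.09, edgeR adjusted p = 0.387). The call of SESN2 ended in 10 alternatives, among them the loss of any library but control replicate 3, and that of TRIB3 ended with library totals and when control replicate 2, control replicate 3 or formononetin replicate 3 was dropped (largest adjusted p 0.142 and 0.0591).

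Among the factors that use the charged tRNAs, mitochondrial translation factors had 3 of 10 raised and 1 lowered (median log2 fold change 0.16) and cytosolic elongation factors 0 of 7 raised and 1 lowered (median -0.015). For these lists and the eIF2 genes below, the background over all tested genes was 12% raised and 8.71% lowered. It was 20.8% and 12.6% among genes at or above the lowest synthetase level. TUFM, which delivers charged tRNA to the mitochondrial ribosome, stood at 258, 250.4 and 257 CPM in the controls and at 315, 319 and 336 CPM with formononetin (0.34 ± 0.04, edgeR adjusted p = 0.00154). MTIF2 and GFM2 were raised too (0.28 ± 0.05 and 0.31 ± 0.08), and MTRFR, a release factor for stalled mitochondrial ribosomes, was lowered (-0.41 ± 0.07). EEF2, the cytosolic translocation factor, fell from 4114 ± 94.2 to 3498 ± 167 CPM (-0.23 ± 0.04, edgeR adjusted p = 0.0108, n = 3). Of 12 genes for eIF2 kinases, eIF2 subunits and the exchange factor eIF2B, 3 were raised and 2 lowered (median 0.018). EIF2B1, EIF2S1 and EIF2B3 were raised (0.47 ± 0.05, 0.41 ± 0.08 and 0.38 ± 0.07). EIF2AK4, the kinase GCN2 that senses uncharged tRNA, fell from 128 ± 0.957 to 112 ± 2.05 CPM (-0.20 ± 0.04, edgeR adjusted p = 0.0127, n = 3), and EIF2S3 changed by -0.20 ± 0.04. The call of GFM2 ended when libraries were scaled to the upper quartile and when control replicate 1, control replicate 3, formononetin replicate 1 or formononetin replicate 2 was dropped, and that of EIF2AK4 without formononetin replicate 2 (largest adjusted p 0.0956 and 0.0541).

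**Figure D4:**
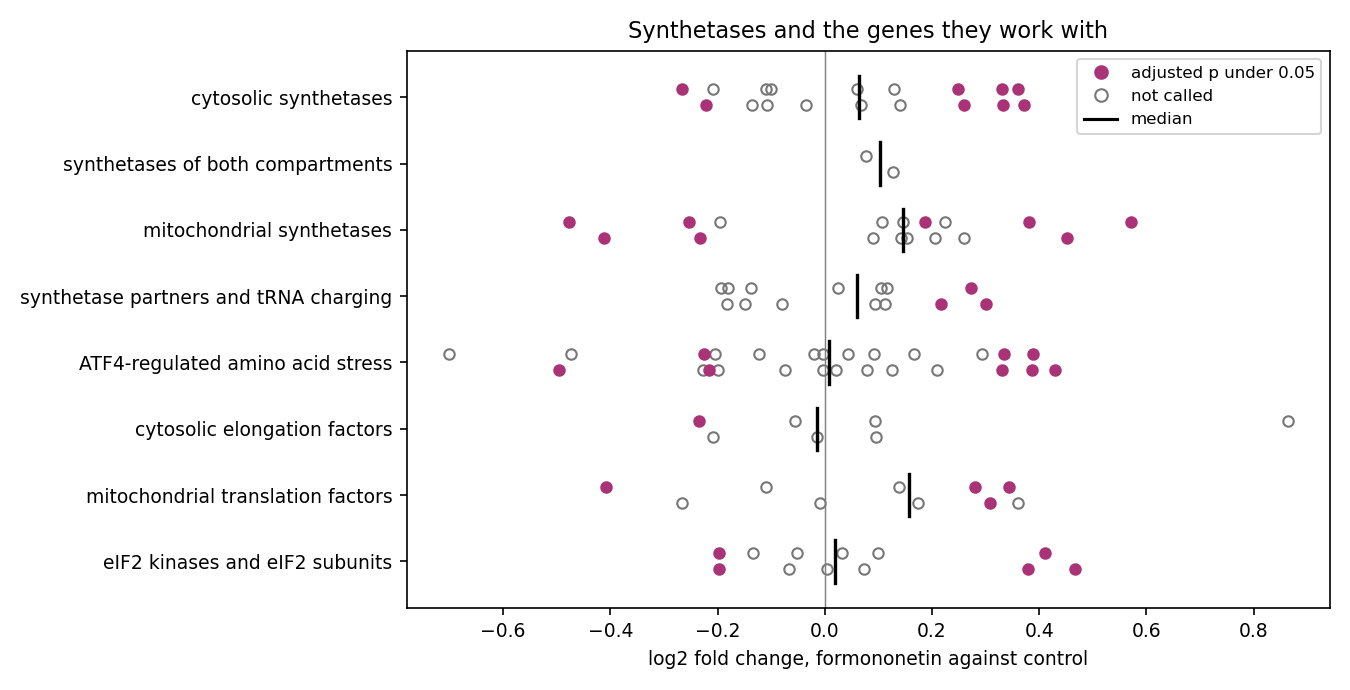
Log2 fold change of every tested gene in each list (filled points passed the test, black bars are medians, points are staggered for legibility). The cytosolic synthetase median of 0.063 (-0.016 under upper quartile scaling) and the ATF4 list median of 0.0085 lie near 0, and raised and lowered genes stand on both sides in most lists.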

How the data were processed

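The authors deposited a table of raw whole-number counts per gene for 6 HepG2 libraries made with a stranded mRNA kit, per the labels' protocols. Per the submitters' processing notes, GRCh38, STAR 2.5.3a and StringTie 1.3.1c were used. Which program counted reads, whether it used strand, and against which annotation is not given in the sources used here. Of 62729 rows, 2165 are numbered loci with no gene name. They held 3.82 to 5.62% of counts and were left out. Symbols matched 60295 of 60564 identifiers, and coordinates came from GENCODE 29.

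The filterByExpr function kept 22230 genes. After TMM scaling, edgeR 4.0.16 (R 4.3.3) ran its two-sided quasi-likelihood F test on group alone, 3 against 3 libraries, and p-values were adjusted after Benjamini and Hochberg over every gene tested. The SE is the log2 fold change over the square root of F. On simulated counts for this comparison (21763 genes), 50 of 50 changes of 2 on the log2 scale, 38 of 50 of 1, 39 of 50 of -1 and 12 of 50 of 0.5 were recovered, and 6 of 21563 unchanged genes were called. Changes of 0.5 were thus often missed in that simulation, which covered genes of all levels. Recovery at the levels of the synthetase genes was not taken separately. Among the synthetases the largest absolute log2 fold change not called was 0.26, and the smallest called was 0.19. No library repeated another: within groups, chi-square per degree of freedom was 13.5 to 34.6. Separate cultures are not named in the labels, and the p-values therefore reflect library-to-library spread alone, which may be technical. All synthetase genes could be named, but the values of some, counted in the totals, are not reported here. Library values were given for called members and for pairs with a called member. Partner lists could name up to 3 called genes in each direction whose mean log2 CPM is at least 3, besides ATF4, DDIT3, ASNS, AIMP1, AIMP2 and EEF1E1 whatever their call. AARS1, IARS1 and MARS1 were given in full, and FARSA, GARS1 and KARS1 as means, after their values were seen. The members, lists and tests were chosen with earlier results of these data known. Alternatives were limma 3.58.1 voom, DESeq2 1.42.0, other scalings and filters, a replicate block, unnamed loci kept and each library left out. Summing same-strand overlaps of at least 50 bases was added after the data were seen.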

Additional observations from a re-analysis of the deposited data

How the results depend on the processing

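No synthetase gene that was called in any setting changed sign in the 17 alternatives, and NARS1, VARS1, YARS1, SARS2 and WARS2 were called in all of them. Under upper quartile scaling the cytosolic median log2 fold change was -0.016 and the mitochondrial median 0.068, and with library totals the mitochondrial median was 0.19. Lowered cytosolic genes numbered 1 without a low-count filter. With a replicate block, 6 synthetase genes were raised in all, 1 of them mitochondrial, and 0 cytosolic genes were lowered, and 3283 genes changed over the whole table, against 4596 without the block. Libraries of the same replicate number did not deviate together (correlations of deviations across genes from -0.02 to 0.01), so the numbers were not taken to pair the libraries. Leaving out each library in turn gave 5 to 9 raised and 3 to 5 lowered synthetase genes (cytosolic 3 to 6 raised and 0 to 2 lowered, mitochondrial 1 to 3 raised and 3 lowered) and 3049 to 3667 changed genes in the whole table, with fewer samples in each fit. Cytosolic and mitochondrial medians ran from 0.018 to 0.089 and from 0.12 to 0.18. Over all genes, upper quartile scaling gave 1813 raised and 2737 lowered, against 2659 and 1937. PARS2, with 143 counts or more per library, had the widest standard error (0.20).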

Other observations

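Synthetases fall into a pair of structural classes with unrelated catalytic folds, and both classes held changed genes. Of the cytosolic class I enzymes 3 of 10 were raised and 0 lowered (median log2 fold change 0.046), and of the cytosolic class II enzymes 3 of 8 were raised and 2 lowered (0.063). EPRS1, the glutamyl-prolyl enzyme, was counted in class I by its glutamyl part alone, although prolyl enzymes belong to class II. In mitochondria 1 of 9 class I enzymes was raised and 3 lowered (0.14), and 3 of 8 class II enzymes were raised and 1 lowered (0.15). Of the 8 enzymes of the multi-synthetase complex, 1 was raised and 1 lowered, with a median of 0.046. Of the 12 other enzymes that serve the cytosol, 5 were raised and 1 lowered, with a median of 0.072. Over all tested genes 12% were raised and 8.71% lowered. Among those at or above the lowest synthetase level the shares were 20.8% and 12.6%. Differences between the classes, or by membership of the complex, were not tested.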
